A study of Mus musculus with 1646 samples.

Results

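The genes described here are 7 ligands of the epidermal growth factor (EGF) family, *Nrg1*, *Nrg2*, *Ereg*, *Areg*, *Hbegf*, *Btc* and *Tgfa*, and 3 of their receptors, *Egfr*, *Erbb2* and *Erbb3*. They were taken by their Ensembl identifiers, matched to symbols in the GENCODE vM21 annotation, and make up 10 of the 46517 genes of the colon count table. All 10 had at least 1 count. The study profiled single mesenchymal cells of the mouse colon by SmartSeq2, which copies the poly(A) RNA of a sorted cell into full-length cDNA, to compare fibroblasts with vascular mural cells (smooth muscle cells and pericytes). The 1646 cells were sorted without CD31, an endothelial marker, from male mice aged 10 to 20 weeks of 4 reporter lines, each named for the gene whose promoter drives its fluorescent reporter. PdgfrbGFP gave 761 cells on 4 plates, Acta2GFP 567 on 2 plates, Cspg4dsRED 91 on 1 plate and PdgfraGFP the remaining 13.8% on 2 plates. For Acta2GFP mice elastase was added to the dissociation, so this line and that treatment cannot be told apart. Sample labels give 8 clusters drawn by the authors, of which 5 hold fibroblasts (1307 cells) and 3 hold mural cells (20.6% of all cells). Along the crypt, the order of the fibroblast clusters from base to apex is 7, 5, 1, 6 and 2, with 13.5, 25.8, 29.3, 2.73 and 7.96% of the cells. Cluster 3 holds vascular smooth muscle cells (8.57%), cluster 4 pericytes (8.63%) and cluster 8 interstitial smooth muscle cells (3.40%).

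EGF family ligands are made as membrane-anchored precursors and are released by proteases at the cell surface. EREG, AREG, HBEGF, BTC and TGFA bind the receptor EGFR, whereas neuregulins, encoded by *Nrg1* and *Nrg2*, bind ERBB3 and ERBB4. ERBB2 has no known ligand and acts as a partner of the other receptors, and ERBB3 has little kinase activity of its own. In the gut, these ligands are known as growth signals that mesenchymal and other cells present to the epithelium, whose stem cells at the crypt base divide in response to EGF receptor signalling.

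The part of a ligand that contacts the receptor is the EGF motif, in which 6 cysteines are spaced in a fixed way. Its coding sequence is shown for *Nrg1* and *Ereg*, the ligands with the highest levels in these cells, and for *Areg* and *Btc*, which lie beside *Ereg* on chromosome 5. Each was read 5′ to 3′ from the first coding transcript of the gene in GENCODE vM21 (GRCm38), with the cysteine codons in capitals.
*Nrg1*: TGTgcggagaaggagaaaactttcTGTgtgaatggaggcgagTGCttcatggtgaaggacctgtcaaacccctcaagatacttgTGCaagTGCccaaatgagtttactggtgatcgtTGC
*Ereg*: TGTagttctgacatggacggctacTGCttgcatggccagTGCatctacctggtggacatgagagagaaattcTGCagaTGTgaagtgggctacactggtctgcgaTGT
*Areg*: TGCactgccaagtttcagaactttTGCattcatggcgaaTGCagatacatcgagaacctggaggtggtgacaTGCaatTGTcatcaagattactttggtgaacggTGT
*Btc*: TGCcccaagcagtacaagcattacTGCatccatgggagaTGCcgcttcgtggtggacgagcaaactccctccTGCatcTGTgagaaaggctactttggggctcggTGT
The motif of *Nrg1* is coded by 2 exons within chr8:31837698-31849398 on the minus strand and spans 40 residues. Those of *Ereg* (chr5:91088496-91089111, plus strand), *Areg* (chr5:91143614-91144364, plus strand) and *Btc* (chr5:91362421-91366197, minus strand) each span 36 residues, also over 2 exons. Between the cysteines, *Ereg*, *Areg* and *Btc* share gaps of 7, 4, 10, 1 and 8 residues, while *Nrg1* has gaps of 7, 5, 13, 1 and 8. Over the 36 residues, *Ereg* and *Btc* are identical at 16 (44.4%), *Areg* and *Btc* at 14 (38.9%) and *Ereg* and *Areg* at 12 (33.3%). These numbers include the 6 cysteines, which the search for the motif required. The *Ereg* gene (chr5:91074622-91093646) ends 45953 bases before *Areg* (chr5:91139599-91148432) starts, and *Btc* (chr5:91357261-91402994) lies a further 208829 bases away on the opposite strand.

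Depth, as the count of a cell over all genes, lay between 47598 and 1494292 with a median of 248628, and cluster medians ran from 118251.5 in cluster 8 to 359677 in cluster 3. A level below is the count of a gene per 500000 gene counts of a cell, averaged over the cells of a cluster within a reporter line with at least 10 such cells, and is given as mean ± SD over lines. The labels name no mouse, so each line counted as 1 sample and p-values measure only the spread between lines. Comparisons of reporter lines used plates as samples instead, and their p-values measure only the spread between plates. As labelled, fibroblasts had *Pdgfra* at 302.5 ± 55.01 (n = 4 lines) against 11.1 ± 9.48 (n = 3) in mural cells, and *Notch3* at 1.41 ± 1.15 against 392.2 ± 277.1. Cluster 8 had *Myh11* at 1891 but *Notch3*, which is used for vascular mural cells, at only 0.229. Markers of other cell types, summed over each list and averaged over all cells of a cluster with the lines pooled, lay at 8.35 to 16.03 for 4 endothelial genes, 0.0332 to 1.37 for 4 immune genes, 3.00 to 18.9 for 4 epithelial genes, 0.427 to 3.71 for 4 glial genes and 0 for 2 mesothelial genes over the 8 clusters. The neuronal list reached 30.8 in cluster 4 through *Uchl1*, with *Elavl4* at 0 there, and of the pair *Kit* and *Ano1*, which marks interstitial cells of Cajal, the sum reached 163.4, 275.2 and 212.9 in clusters 2, 3 and 4, nearly all of it from *Ano1*, on the same pooled scale.

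For tests, raw counts were summed per line and class and compared by the quasi-likelihood test of edgeR, and p-values were adjusted by Benjamini-Hochberg over all genes tested, with a threshold of 0.05. Since the authors drew the clusters on these counts, a difference between clusters is not an independent finding. Between all fibroblasts and all mural cells, 3 of the 9 members that passed the filter on low counts were called, *Egfr* and *Erbb2* higher and *Hbegf* lower in fibroblasts, beside 6.57% of all 19173 genes tested. Between the apex cluster 2 and the deeper clusters 1, 5 and 7 as 1 class, 2 of 8 were called, *Nrg1* and *Ereg*, both higher in cluster 2, beside 7.26% of all genes. Among neighbours along the crypt, none of the 9 members tested was called between clusters 5 and 7 (0.037% of all genes), clusters 1 and 5 (0.412%) or clusters 6 and 1 (1.86%). The numbers of members at an unadjusted p under 0.05 were 1, 5 and 2 in these comparisons, beside 6.28, 7.41 and 16% of all genes. DESeq2 called 1, 3 and 1 members, beside 1.23, 2.3 and 10.6% of all genes, and gave no adjusted p for *Nrg1* and *Erbb3* in these comparisons. From cluster 6 to cluster 2, only *Nrg1* was called, beside 2.1% of all genes. Among the mural clusters, 0 of 7 members differed between pericytes and vascular smooth muscle cells by edgeR (0.668% of all genes), with 2 at an unadjusted p under 0.05 (10.9% of all genes) and 2 called by DESeq2 (5.92%), whereas 1 of 7, *Hbegf*, did between clusters 8 and 3 (1.04%). Cluster 8 has a single sum, from 1 line, which the fit assumes to vary like the others.

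**Figure D1:**
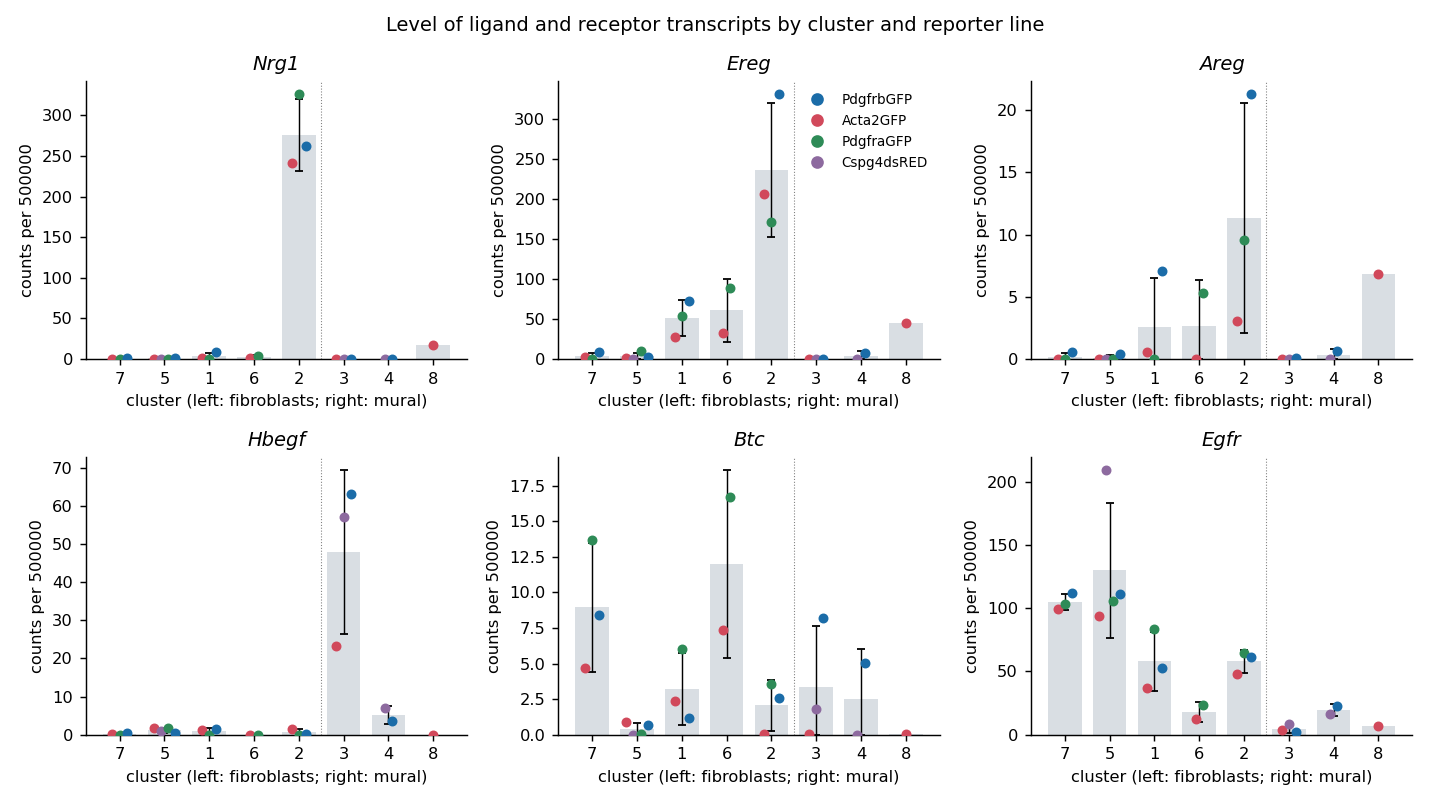
Level of 5 ligands and of *Egfr* (counts per 500000 gene counts, linear axes that differ between panels) in each cluster, with fibroblast clusters from crypt base to apex on the left of the dotted line and mural clusters on the right. Bars are means and whiskers 1 SD over reporter lines, drawn no lower than 0, and points are lines. *Nrg1* stood at 276.2 in cluster 2 and at 16.97 or less elsewhere, *Hbegf* at 47.9 in cluster 3, and *Egfr* was highest in clusters 5 and 7.

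*Nrg1*, which encodes neuregulin 1 (ENSMUSG00000062991, chr8:31814551-32884029, minus strand), was nearly restricted to the apex fibroblasts of cluster 2 by level. There it had 240.6 counts per 500000 in Acta2GFP, 325.8 in PdgfraGFP and 262.2 in PdgfrbGFP cells, a mean of 276.2 ± 44.3 (SD, n = 3 lines). In clusters 1, 5 and 7 together it had 0.709, 0.658 and 4.53 in the same lines and 0 in Cspg4dsRED. Every line of cluster 2 thus lay above every line of the deeper clusters, by a log2 fold change of 7.31 (SE 1.17, adjusted p = 0.00617 by edgeR). Within each of the 5 plates with at least 10 cells of both classes, the difference had the same direction, with levels of 100.6 to 379.7 in cluster 2 beside 0.496 to 6.09. Without the Acta2GFP line the call was lost (adjusted p = 0.0821 by edgeR), and DESeq2 gave no adjusted p for it. Against cluster 6, which had 1.44 in Acta2GFP and 4.25 in PdgfraGFP, the log2 fold change was 7.01 (SE 1.44, adjusted p = 0.0177 by edgeR). That call was also lost without Acta2GFP, without PdgfraGFP and with plates in place of lines, with an adjusted p of up to 0.302 by edgeR.

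After each cell was thinned to 50000 counts, 88.5% of cluster 2 cells still had an *Nrg1* count (95% Clopper-Pearson interval, which covers counting error only, 81.8 to 93.5). In no other cluster was this share above 29.6% (cluster 8), and it was 20% in cluster 6 and 2.86 to 10.4% in the rest. The median cluster 2 cell had 221.8 counts per 500000, so the level was not carried by a few cells. Low counts outside cluster 2 went with those of neighbouring wells. Between a cell's *Nrg1* level and the summed *Nrg1* counts of the other cells in its row or column of the plate, Spearman's rho averaged 0.376 over 8 plates (0.0689 to 0.574, 1399 cells, given as a description because cells of a plate share a library pool). The part of this in the low *Nrg1* levels was not tested. Cluster 8, second in order at 16.97 (1 line), had 15 on plate colon_513s, which holds 40 cluster 2 cells, and 23.5 on plate colon_682s, which holds 4. Clusters 1 and 6 followed at 3.29 ± 4.35 and 2.84 ± 1.99, and their lines overlapped, while the 9 PdgfrbGFP cells of cluster 6, too few for these means, had 15.3. Between all fibroblasts (6.89 to 80.5 in 4 lines) and all mural cells (0.0794 to 10.7 in 3 lines) *Nrg1* overlapped and was not called (log2 fold change 3.22, adjusted p = 0.301 by edgeR). It was called without Acta2GFP (7.91, adjusted p = 0.0439 by edgeR) and with plates in place of lines (3.37, adjusted p = 0.0496 by edgeR), and the other alternatives gave 1.91 to 4.45 with no call. Of the 84 mural cells of Acta2GFP, which held the highest mural value, 52 are of cluster 8.

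*Ereg*, which encodes epiregulin (ENSMUSG00000029377), was highest in cluster 2 as well but was spread more widely. Its level in cluster 2 was 206.4 in Acta2GFP, 171.8 in PdgfraGFP and 330.7 in PdgfrbGFP cells (236.3 ± 83.6, SD, n = 3 lines). In clusters 1, 5 and 7 it was 12.5, 28.5 and 34.6 in these lines and 12.2 in Cspg4dsRED, so the groups did not overlap. The log2 fold change was 3.18 (SE 0.39, adjusted p = 0.00179 by edgeR), and the call was kept under all 10 alternatives, with a log2 fold change from 2.48 to 3.52. Of the 10, at least 3 cells per sum used the same sums as this fit. Within the fibroblasts the level stepped up between cluster 5 (3.67 ± 4.35, n = 4) and cluster 1 (51.3 ± 22.3, n = 3), whose lines did not overlap. By edgeR this step had an adjusted p of 0.176, and DESeq2 and plates in place of lines called it. Clusters 6 (60.7 ± 39.4, n = 2), 1 and 8 (44.9, 1 line) overlapped in their lines and cannot be ordered. A set of 9 PdgfrbGFP cells of cluster 6, too few for these means, had 280.1, within the range of cluster 2. Vascular smooth muscle cells had the lowest mean, at 0.260 ± 0.208 (n = 3), but the lowest lines of clusters 5 and 7 lay below it, at 0 and 0.0604.

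*Ereg* was uneven from cell to cell. In cluster 2, 63.4% of thinned cells had a count, the median cell had 63.6 counts per 500000, and the 5% of cells with the most held 42.1% of the level, beside 18.7% for *Nrg1*. On plate colon_439s, 11 of 30 cluster 2 cells had at least 100 counts per 500000 while the median cell had 1.84. *Ereg* was seen in 64.7% of the thinned cluster 2 cells with an *Nrg1* count and in 8 of the 15 without. Deeper, in clusters 1, 5 and 7, it was seen in 43.6% of the cells with an *Nrg1* count and in 22.7% of the 1024 without, shares that pool plates and lines and are given with no test. Per kb of merged exon, *Ereg* lay above *Nrg1* in each line of cluster 2, at 57.2 ± 20.2 against 26.7 ± 4.28 counts per 500000 per kb. The merged length joins all annotated exons, 4.13 kb for *Ereg* and 10.35 kb for *Nrg1*. It need not be the length of the transcripts present. Not divided by length, *Nrg1* had the higher mean, 276.2 beside 236.3.

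*Areg*, which encodes amphiregulin (ENSMUSG00000029378), had much lower values than *Ereg*, and among lines with at least 10 cells of a cluster its mean was highest in cluster 2. Its level in cluster 2 was 3.04 in Acta2GFP, 9.58 in PdgfraGFP and 21.3 in PdgfrbGFP cells (11.3 ± 9.24, n = 3 lines). In clusters 1, 5 and 7 it was 0.233, 0 and 3.38 in these lines and 0 in Cspg4dsRED, and the ranges overlapped. The difference was not called (log2 fold change 2.22, adjusted p = 0.592 by edgeR). The 3.38 of PdgfrbGFP includes plate colon_686s, without which the log2 fold change was 5.15 and still not called (adjusted p = 0.0879 by edgeR). Cluster 8 had 6.86 in its 1 line, within the range of cluster 2. Smaller sets, which are not in these means, were higher than any line of cluster 2, at 50.01 in 4 cluster 8 cells and 51.4 in 9 cluster 6 cells, both of PdgfrbGFP, so *Areg* cannot be said to peak in cluster 2. Few cells carried the transcript, since 10 cells held 85.5% of all its counts and 6.87% of thinned cluster 2 cells had one.

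*Btc*, which encodes betacellulin (ENSMUSG00000082361), had another order, with its highest levels in cluster 6 (7.34 in Acta2GFP and 16.7 in PdgfraGFP cells) and in cluster 7 at the crypt base (4.68, 13.7 and 8.45 in Acta2GFP, PdgfraGFP and PdgfrbGFP cells). In cluster 5 it was between 0 and 0.910 in 4 lines, below every line of cluster 7. The 8.45 rests on 3 cells of plate colon_686s with 89.04, since the other plates of that line had 4.55 to 5.65. The difference between clusters 7 and 5 was not called by edgeR (adjusted p = 0.417), whereas DESeq2 called it (adjusted p = 0.00128), the only one of 10 alternatives to do so. Lines of clusters 6 and 7 overlapped, as did each other pair of neighbours in the order.

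*Hbegf*, which encodes heparin-binding EGF-like growth factor (ENSMUSG00000024486), was the ligand with its highest levels in mural cells. In vascular smooth muscle cells (cluster 3) it had 23.2 counts per 500000 in Acta2GFP, 57.2 in Cspg4dsRED and 63.2 in PdgfrbGFP cells (47.9 ± 21.6, n = 3 lines), and in pericytes (cluster 4) it had 6.95 in Cspg4dsRED and 3.53 in PdgfrbGFP cells. All mural cells together had 8.01, 30.9 and 29.2 in Acta2GFP, Cspg4dsRED and PdgfrbGFP, above the 0.485 to 1.18 of fibroblasts in 4 lines. With mural cells as the base, the log2 fold change was -4.72 (SE 0.68, adjusted p = 0.00378 by edgeR). Lines pair the sums in this comparison, and with the line as a replicate block the log2 fold change was -4.44 but the call was lost (adjusted p = 0.0690 by edgeR), as it was without PdgfrbGFP (0.0658). Pericytes and vascular smooth muscle cells did not overlap in their lines, yet their difference was not called by edgeR (adjusted p = 0.292), whereas DESeq2 called it (adjusted p = 0.0109).

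Cluster 8 had 0 *Hbegf* counts in its 52 Acta2GFP cells, and its sum was at least 202.8-fold lower than the mean of the 3 sums of cluster 3, taking 3 counts in the sum as the limit that a count of 0 allows. That limit is 0.203 counts per 500000, beside 17.59 in the cluster 3 sum of the same line, the lowest of the 3. The adjusted p was 0.0382 by edgeR, in a fit that assumes this lone sum to vary like the others. The call was lost with at least 3 cells per sum, with the line as a block and without plate colon_686s (adjusted p up to 0.152 by edgeR). Of thinned cells, 33.6% of cluster 3, 10.7% of cluster 4 and 0 of 54 in cluster 8 had a count, and the last allows a share of up to 5.56%. The median cluster 3 cell had none, so the level of this cluster rested on a part of its cells. Cells outside cluster 3 had a mean Spearman's rho of 0.164 (-0.215 to 0.422 over 7 plates) between their *Hbegf* level and the counts of wells in their row or column.

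*Tgfa*, which encodes transforming growth factor alpha (ENSMUSG00000029999, chr6:86195223-86275719, plus strand), and *Nrg2*, which encodes neuregulin 2 (ENSMUSG00000060275), were close to absent. *Tgfa* had 32 counts in 9 of the 1646 cells and passed the filter on low counts only in the comparisons of reporter lines, alternatives aside. *Nrg2* was counted in 30 cells, with 88.3% of its counts in 10 of them, and its highest cluster level was 1.499 ± 1.453 in cluster 1. Cluster levels of *Tgfa* were at most 0.0988.

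**Figure D2:**
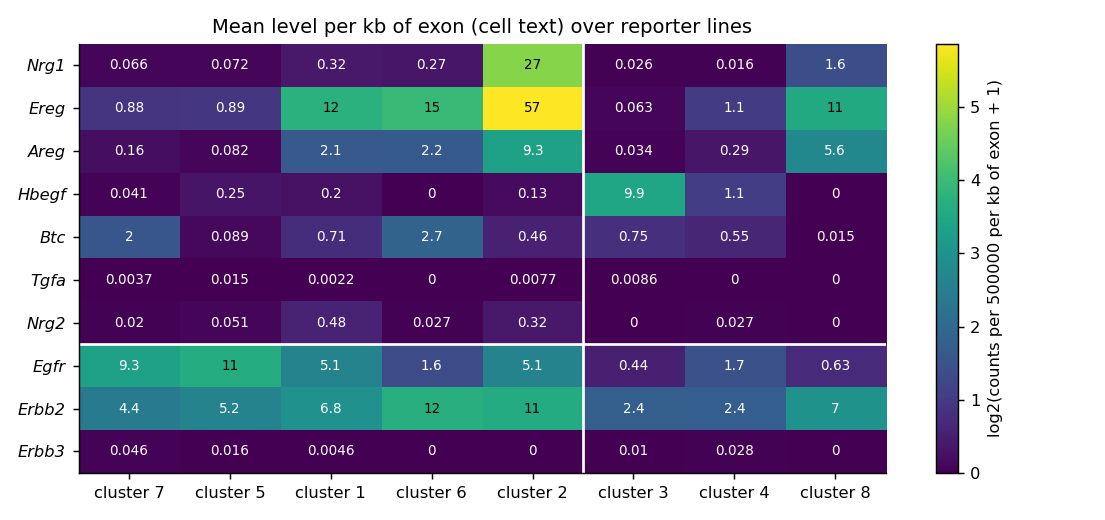
Mean level over reporter lines of the 10 genes in each cluster, in counts per 500000 per kb of merged exon (number in each cell), coloured on a log2 scale after adding 1. White lines part ligands from receptors and fibroblast from mural clusters. *Ereg* in cluster 2 has the highest value, 57, and *Tgfa* and *Erbb3* stay below 0.05 in every cluster.

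Of the receptors, *Egfr* (ENSMUSG00000020122, chr11:16752203-16918158, plus strand) was the one with the steepest difference between fibroblasts and mural cells. Fibroblasts had 68.9 counts per 500000 in Acta2GFP, 167.4 in Cspg4dsRED, 79.6 in PdgfraGFP and 84.4 in PdgfrbGFP cells. Mural cells had 5.73, 12.6 and 13.7 in Acta2GFP, Cspg4dsRED and PdgfrbGFP, so every fibroblast value was above every mural value. The log2 fold change was 3.33 (SE 0.54, adjusted p = 0.00667 by edgeR), and the call was kept under all 10 alternatives, the line as a replicate block among them (3.495, adjusted p = 0.0255 by edgeR). Of the 10, at least 3 cells per sum used the same sums as this fit. The highest adjusted p, 0.0494, came without PdgfrbGFP.

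Along the crypt, *Egfr* was highest in cluster 5 (93.5, 209.1, 105.4 and 111.3 in Acta2GFP, Cspg4dsRED, PdgfraGFP and PdgfrbGFP cells) and in cluster 7 (104.9 ± 6.22, n = 3 lines), which overlapped. Clusters 2 (58.03 ± 8.95, n = 3) and 1 (57.9 ± 23.7, n = 3) overlapped with each other and lay below every line of cluster 7, and cluster 6 had 12.2 and 23.7 in its 2 lines with at least 10 cells. Its 9 PdgfrbGFP cells, too few for these means, had 96.3, above every line of cluster 2, so the place of cluster 6 in this order rests on leaving them out. Likewise 8 Cspg4dsRED cells of cluster 1 had 154.7, above the lines of cluster 7 used here. None of these steps was called. From cluster 5 to cluster 1 the log2 fold change was -1.71 (SE 0.37, adjusted p = 0.0596 by edgeR), which DESeq2 and the line as a block called, and from cluster 6 to cluster 2 it was 1.69 (SE 0.45, adjusted p = 0.0633 by edgeR), called by the same alternatives and without Cspg4dsRED. Between cluster 2 and clusters 1, 5 and 7 it was -0.93 (SE 0.40, adjusted p = 0.229 by edgeR). Shares of thinned cells with an *Egfr* count were 71.8% and 70.3% in clusters 7 and 5, 52.8% in cluster 1, 35.6% in cluster 6 and 43.5% in cluster 2, against 10% in vascular smooth muscle cells.

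*Erbb2* (ENSMUSG00000062312, chr11:98412470-98437716, plus strand) was present in all 8 clusters at more even levels. Fibroblasts had 27.3, 49.1, 54.6 and 31.2 in Acta2GFP, Cspg4dsRED, PdgfraGFP and PdgfrbGFP cells, and mural cells 29.4, 5.53 and 16.4 in Acta2GFP, Cspg4dsRED and PdgfrbGFP. By these means over cells the groups overlapped, since mural cells of Acta2GFP lay above the fibroblasts of that line. The test below uses summed counts, in which cells with more counts weigh more, so this overlap does not carry over to it. Of those 84 mural cells, 52 are of cluster 8 (*Erbb2* 36.3), which the other lines hold only as 4 cells of PdgfrbGFP. The log2 fold change of the sums was 1.60 (SE 0.40, adjusted p = 0.0443 by edgeR), close to the threshold. It was lost without any 1 of the 4 lines, with the line as a replicate block (1.52, adjusted p = 0.163 by edgeR), without the filter on low counts and with plates in place of lines. Cluster means ran from 12.5 ± 13.8 in pericytes to 61.1 ± 24.2 in cluster 6, and each pair of neighbours in this order overlapped. The 8 cluster 1 cells of Cspg4dsRED, too few for these means, had 149.2. In single cells *Erbb2* was uneven, with a count in 10.7 to 35.6% of thinned cells. Of thinned fibroblasts with an *Egfr* count, 28.1% also had an *Erbb2* count, and of those without, 27.4%.

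*Erbb3* (ENSMUSG00000018166, chr10:128567523-128589652, minus strand), the receptor of neuregulins, was counted in 35 cells, with 74.4% of its counts in a single cell, and its cluster level was at most 0.279. It was not detected in clusters 2 and 8 at this depth. Of the cluster 2 cells none had a count, which allows a share of up to 2.29%. It was not called in any comparison or alternative in which it was tested, and neighbours in its order overlapped. On the per kb scale *Egfr* and *Erbb2* stood at 9.26 and 4.44 in cluster 7, at 5.12 and 11.2 in cluster 2 and at 0.436 and 2.45 in cluster 3. On this scale the order of these receptors within a cluster turned between the crypt base and the apex, without a test of the change. Not divided by exon length, their cluster 2 levels were close, at 58.03 and 58.4.

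**Figure D3:**
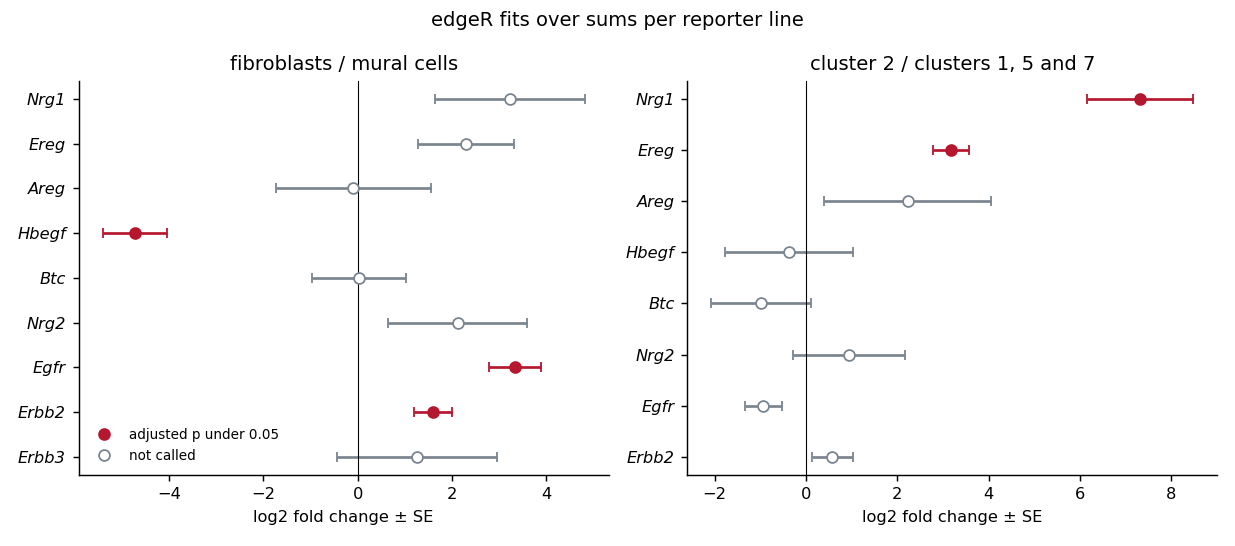
Log2 fold changes with standard errors (1 SE on each side) of the members that passed the filter on low counts, from fits over sums per reporter line. The left panel sets fibroblasts (4 lines) against mural cells (3 lines) and the right panel sets cluster 2 (3 lines) against clusters 1, 5 and 7 (4 lines); filled red points have an adjusted p under 0.05, which *Hbegf*, *Egfr* and *Erbb2* reach on the left and *Nrg1* and *Ereg* on the right.

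**Figure D4:**
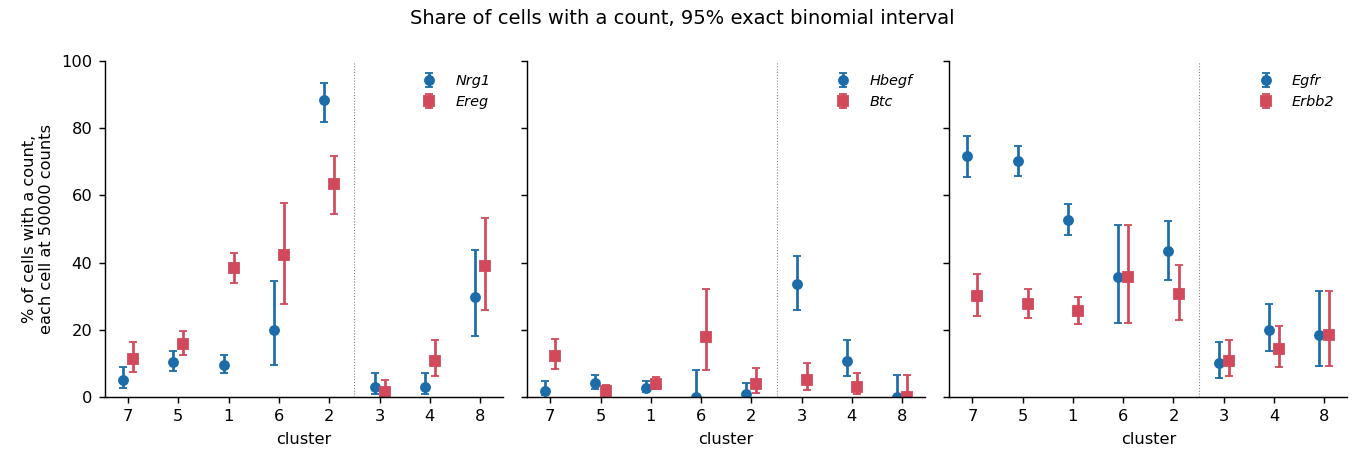
Share of cells with at least 1 count of a gene (percent) in each cluster, after each cell was thinned to 50000 counts, with 95% Clopper-Pearson intervals that cover counting error only. Fibroblast clusters stand left of the dotted line from crypt base to apex. *Nrg1* reached 88.5% in cluster 2, and *Egfr* stood at 71.8% in cluster 7, 35.6% in cluster 6 and 43.5% in cluster 2.

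Reporter lines and plates were compared in the fibroblasts of clusters 1, 5 and 7, which every line contributed. Here each plate counted as 1 sample, and plates of a line may share mice, which the labels do not name. No member of 10 was called between Acta2GFP and PdgfrbGFP (0% of all 20114 genes by edgeR, where 3.52% had an unadjusted p under 0.05 and DESeq2 called 0.159%) or between PdgfraGFP and PdgfrbGFP (0% by edgeR, 6.78% at an unadjusted p under 0.05, 1.49% called by DESeq2). At an unadjusted p under 0.05 there were 2 members in each of these comparisons, and DESeq2 called none. It gave no adjusted p for *Areg* and *Btc* in the first, nor for *Areg*, *Tgfa*, *Btc* and *Erbb3* in the second. *Areg* there had a DESeq2 log2 fold change of -11.77 (SE 3.57), so these members could not be called. Within PdgfrbGFP, however, plates differed. *Ereg* had 16.97 on plate colon_073s, 19.6 on colon_075s, 116.2 on colon_685s and 179.1 on colon_686s. *Areg* had 0.551, 0.640, 1.41 and 56.2, and *Btc* 1.05, 1.38, 1.11 and 17.5 on the same plates. The 26 cells of plate colon_686s, with a median of 1068290 counts the deepest, were thus the highest for all 3 ligands, and plate colon_685s (46 cells) was high for *Ereg* alone. Both plates hold mostly mural cells, with 32 and 49 cells of clusters 3 and 4 on colon_685s and 42 and 47 on colon_686s, and colon_686s holds no cluster 2 cell. For *Nrg1* the 4 values were 0.987, 6.09, 4.26 and 22.2.

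**Figure D5:**
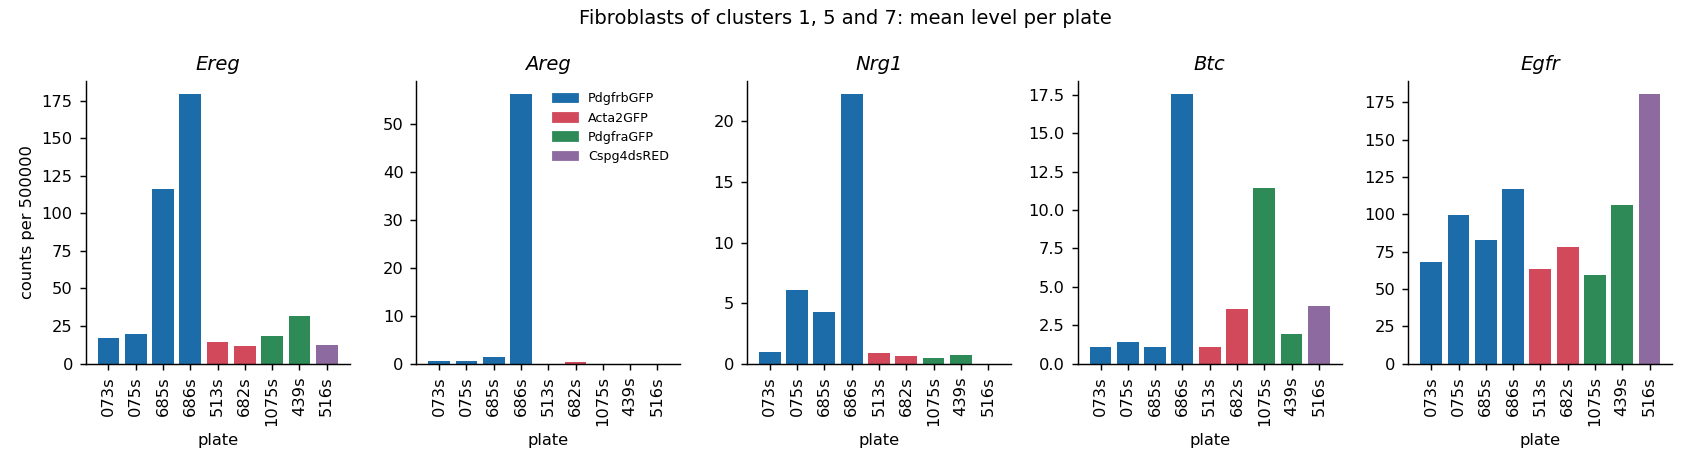
Mean level (counts per 500000, linear axes that differ between panels) of 4 ligands and *Egfr* in the fibroblasts of clusters 1, 5 and 7 on each of the 9 plates, coloured by reporter line. Each bar is 1 plate, with no error. Plate colon_686s of PdgfrbGFP is highest for *Ereg* (179.1), *Areg* (56.2), *Nrg1* (22.2) and *Btc* (17.5), and plate colon_516s of Cspg4dsRED for *Egfr* (180.1).

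In cluster 1, 12 cells of plate colon_686s gave *Ereg* at 349.7 and *Areg* at 120.7, and 6 of the 12 cells had at least 100 *Ereg* counts per 500000 and 3 had as many of *Areg*. On plate colon_685s, 11 of 19 cluster 1 cells reached that *Ereg* level, against 7 of 87 to 7 of 41 on the other plates with at least 10 such cells. Leaving out plate colon_686s lowered cluster 1 from 2.55 to 0.519 for *Areg* and from 51.3 to 46.3 for *Ereg*. For the comparison of cluster 2 with clusters 1, 5 and 7 it raised the log2 fold change of *Nrg1* to 8.05 (adjusted p = 0.00153 by edgeR) and of *Ereg* to 3.52 (adjusted p = 0.000326 by edgeR). That of *Areg* rose from 2.22 to 5.15 and was not called (adjusted p = 0.0879 by edgeR).

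Other genes of the pathway were taken from lists of 5 further ligands and receptors, 5 shedding genes, 28 adaptors and kinases, 16 genes that restrain the signal and 12 target genes of ERK, the kinase at the end of the cascade. Beside them stands a list of 16 genes known to respond to tissue dissociation, of which *Fos*, *Egr1* and *Ier3* are also ERK targets. Between cluster 2 and clusters 1, 5 and 7, 4 of 12 ERK targets were higher and none lower (*Ier3*, *Fos*, *Egr1* and *Phlda1*), beside 3.5% of all genes called higher, with a median log2 fold change of 1.44 over the list against 0.0047 over all genes. Of the 4, *Phlda1* alone is not also on the dissociation list. Of the 16 restraining genes, the Sprouty genes *Spry4* and *Spry1* were higher and *Lrig1*, which encodes a membrane protein that lowers ERBB receptor levels, was lower. *Rhbdf2*, which encodes a partner of the sheddase ADAM17, was the only one of 5 shedding genes called (higher). The 5 largest called values over the lists were those of *Fosb* (4.34), *Lrig1* (-3.79), *Ier3* (3.00), *Spry4* (2.47) and *Nr4a1* (2.38), with adjusted p from 0.00132 to 0.0453 by edgeR. Calls of single list genes were often lost when a line was left out. *Lrig1* stayed called under 3 of 9 alternatives and *Phlda1* under 4 of 10, *Fosb* under all 10, and *Spry4* and *Atf3* under all but the one without Acta2GFP. Among these alternatives, at least 3 cells per sum again used the sums of the reported fit. Of the dissociation genes, 14 of 16 were higher in cluster 2 (median 1.89). They therefore moved with *Nrg1*, *Ereg* and the ERK targets.

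The mean of log2(count per 500000 + 1) over the dissociation genes was higher in cluster 2 than in clusters 1, 5 and 7 on each of the 5 plates with both, for example 8.26 against 3.62 on plate colon_513s and 9.15 against 7.95 on plate colon_075s. Across cluster 2 cells within plates, Spearman's rho with this score averaged 0.290 for *Nrg1* and 0.0987 for *Ereg* (3 plates, 95 cells, weak and given as a description). In cluster 3 cells it averaged 0.228 for *Hbegf* (0.197 to 0.254 over 3 plates with at least 20 such cells each) and -0.280 for *Egfr* (2 plates, 74 cells), likewise weak. Plate colon_686s, with the high *Ereg* and *Areg*, had a score of 4.87 in clusters 1, 5 and 7, below the 7.95 of plate colon_075s, where *Ereg* was 19.6, and above the 4.68 of colon_073s and the 4.08 of colon_685s, where it was 16.97 and 116.2. Whether the response to dissociation has a part in the ligand levels of clusters 2 and 3 was not tested.

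Against cluster 6, cluster 2 had 5 of 12 ERK targets higher (median 3.76, all genes 0.22) and 14 of 16 dissociation genes higher (median 3.42), beside 1.52% of all genes. Of the 5 ERK targets, *Ier3*, *Fos* and *Egr1* are on both lists, and *Myc* and *Fosl2* are not. The largest values were those of *Myc* (6.66), *Ier3* (6.53), *Fosb* (6.11), *Atf3* (5.29) and *Nr4a1* (4.27), all called by edgeR. *Myc* was also the 1 ERK target called from cluster 1 to cluster 6, where it was lower (-4.51, adjusted p = 0.00512 by edgeR), and *Egr1* the 1 called from cluster 5 to cluster 1 (-1.59, adjusted p = 0.0418 by edgeR), a call kept under 3 of 10 alternatives and under none that left out a line. *Fosl2* kept its call between clusters 2 and 6 under 5 of 10. Between fibroblasts and mural cells, *Errfi1*, which encodes a feedback inhibitor of EGFR, was lower in fibroblasts (-2.86, adjusted p = 0.0203 by edgeR), and *Pik3r2*, a subunit of phosphoinositide 3-kinase, was higher (1.51, adjusted p = 0.0197). The first call was lost without Acta2GFP and without PdgfrbGFP (adjusted p up to 0.107 by edgeR), and the second in these cases, with plates in place of lines and with the line as a block (adjusted p up to 0.690 by edgeR). Beside these, 3 of 16 dissociation genes were lower in fibroblasts, as *Hbegf* was (median -0.64 over the list and -0.03 over all genes, of which 3.36% were called lower). For cluster 8 against cluster 3, *Errfi1* had a log2 fold change of -5.44 and *Spry4* of -8.17, with adjusted p of 0.00423 and 0.0117 by edgeR. These rest on the lone sum of cluster 8, and with at least 3 cells per sum, which adds 4 cells of a second line, both calls were lost (adjusted p = 0.242 and 0.152 by edgeR). Pericytes had 5 of 16 dissociation genes lower than vascular smooth muscle cells (median -2.07, all genes -0.03, of which 0.404% were called lower), and 0 of the 9 ERK targets tested. Of *Egf*, *Epgn*, *Nrg3*, *Nrg4* and *Erbb4*, the last a receptor of neuregulins, 1 to 3 passed the filter in a comparison and none was called in any of the 10.

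Genes whose pattern was most like that of a member were found over the 21 sums of a line and cluster with at least 10 cells, by Pearson's r of log2(mean count per 500000 + 1) across 21739 genes. These r describe points that share lines and clusters. For *Nrg1* they were *Lgr5* (0.980), a receptor for R-spondins, *Ptprr* (0.964) and *Gm26578* (0.958), and the last overlaps *Nrg1* in the annotation. For *Ereg* they were *Gm19610* (0.970), which overlaps it, *Syt13* (0.937) and *Hpse* (0.924), the gene of heparanase. *Hbegf* was most like *Dgkg* (0.956), *Scn4b* (0.948) and *Nrip2* (0.944), and *Egfr* was most like *Ugdh* (0.935), *Lima1* (0.926) and *Shisa5* (0.908). For *Erbb2* the values were lower, at 0.861 for *Rpl18-ps1*, 0.857 for *Gm44148* and 0.835 for *Pcdh7*. Among the members themselves, r was 0.860 for *Nrg1* and *Areg*, 0.798 for *Areg* and *Ereg*, 0.796 for *Nrg1* and *Ereg*, and -0.66 for *Hbegf* and *Egfr*. Whether reads were counted by strand is not given in the sources used here, and reads on overlapping genes cannot be assigned to one of them; *Erbb2* overlaps *Mien1* and *Tgfa* overlaps *Gm43917* as well.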

How the data were processed

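Counts of 1646 colon cells were used, and the line, plate and cluster of a cell came from its labels. The authors trimmed adapters, mapped single reads of 50 bases to GRCm38 (mm10) with TopHat2, removed what they call doublets with samtools, and deposited whole-number raw read counts per gene from featureCounts, without molecular identifiers. The 92 ERCC spike-in rows (1.36% of counts) were left out. Of 46517 genes, 46005 had a symbol in GENCODE vM21. No doublet caller was run.

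Counts were summed per reporter line and class (at least 10 cells), filtered with filterByExpr, normalized with TMM and tested with edgeR 4.0.16 (glmQLFit, glmQLFTest, threshold 0.05, two-sided) in R 4.3.3. The SE of a fold change was taken from its log2 value and the F statistic (value over root F). Reporter lines were compared over sums per plate. Neighbouring fibroblast clusters shared 1 fit, as did the mural clusters. Levels use 500000 gene counts per cell. Lengths are merged exons. Shares were thinned to 50000 counts, leaving out 11 cells, and a count of 0 allows 3 counts. Same-line sums of fibroblasts and mural cells deviated together (r 0.152 to 0.175, 3 pairs), so lines pair them. The pairing comes from the line in the labels.

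The members, lists, designs and alternatives were chosen with earlier results of these data known. Besides the members, at most the 5 list genes with the largest called log2 fold changes per comparison were named with values, and the 3 genes most like each member that reached 20 counts per 500000. Called list genes outside this rule were named after their values were seen. One result of the list of adaptors and kinases is not reported here. Alternatives were DESeq2 1.42.0, no filter, a block by line, sums of 3 cells or more, sums by plate instead of by line, each line or plate left out, cluster 1 cells alone for the reporter lines, levels from summed counts, and unthinned shares. Leaving out plate colon_686s and the row and column values of *Hbegf* were added after the data were seen. The fits were tested on counts simulated with known differences, of which DESeq2 recovered more than edgeR in each comparison simulated, with many more false calls. Of 200 genes changed by a log2 fold of 4, edgeR recovered 44.5 to 65%, with 1 to 8 false calls. DESeq2 recovered 65.5 to 87.5%, with 103 to 208 false calls.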

Additional observations from a re-analysis of the deposited data

Results flagged for a closer look

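In 7 of 28 groups of 4 samples that were examined, the highest sample stood apart from the others by Dixon's criterion, where chance alone marks about 1 group in 20. *Egfr* stood apart in the Cspg4dsRED line, at 167.4 counts per 500000 in all its 28 fibroblasts and at 209.1 in its 13 cluster 5 cells. *Nrg1* in clusters 1, 5 and 7 stood apart in the PdgfrbGFP line, at 4.53. Among the plates of that line, colon_686s stood apart at 56.2 for *Areg* and 17.5 for *Btc* in clusters 1, 5 and 7, and at 120.7 for *Areg* and 15.7 for *Btc* in cluster 1 alone.

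Sets of fewer than 10 cells entered the tests of single clusters only in the alternative with at least 3 cells per sum, and some of them held levels above every line that did. The 8 cluster 1 cells of Cspg4dsRED had *Erbb2* at 149.2, where the highest line used had 56.4. The 9 cluster 6 cells of PdgfrbGFP had *Areg* at 51.4, *Ereg* at 280.1, *Btc* at 65.4 and *Egfr* at 96.3, beside 5.29, 88.6, 16.7 and 23.7 in the highest line used, and 5 of these 9 cells came from plate colon_685s. The 4 cluster 8 cells of PdgfrbGFP had *Areg* at 50.01, beside 6.86 in Acta2GFP.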

How the results depend on the processing

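Counts of members called kept to within 1.5 times the reported one in 75.2% of the alternatives, were higher in 17 and lower in 9. That share includes the comparisons of reporter lines, which called 0 members in every setting. It also includes settings that used the same sums as the reported fit. For DESeq2, a reported member without an adjusted p was left out of the reported count. Between cluster 2 and clusters 1, 5 and 7, DESeq2 called 1 member, *Ereg*, and gave no adjusted p for *Nrg1*. DESeq2 called 1 member between clusters 5 and 7, 3 between clusters 1 and 5, 1 between clusters 6 and 1, 1 between clusters 2 and 6 (*Egfr*, with no adjusted p for *Nrg1*), 2 between clusters 4 and 3 and 4 between clusters 8 and 3. With the reporter line as a replicate block, 1 member was called between fibroblasts and mural cells, 1 between clusters 1 and 5, 1 between clusters 6 and 1, 2 between clusters 2 and 6 and 0 between clusters 8 and 3, and the block changed no other count. Same-line sums had r from 0.0207 to 0.223 over the fibroblast clusters, and over clusters 4 and 3 only 2 pairs existed. Plates in place of lines gave 2 between clusters 1 and 5, 0 between clusters 2 and 6 and 4 between clusters 8 and 3, where no filter gave 2, at least 3 cells per sum 0 and leaving out plate colon_686s 0. Leaving out 1 line gave 1 to 3 members between fibroblasts and mural cells, 1 to 2 between cluster 2 and clusters 1, 5 and 7, 0 to 1 between clusters 6 and 1, 0 to 2 between clusters 2 and 6, 0 to 1 between clusters 4 and 3 and 1 to 2 between clusters 8 and 3. The log2 fold change of *Erbb2* from cluster 1 to cluster 6 was 1.24 and turned to -0.17 with at least 3 cells per sum. It was the only one reversed among members called in at least 1 setting of a comparison. Members never called changed sign too, such as *Ereg* from cluster 7 to cluster 5 (-1.40, up to 1.24) and *Nrg1* from cluster 1 to cluster 6 (-1.02, up to 1.89). The causes were not tested.

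Over all genes, the share called ranged from 1.81% (without PdgfrbGFP) to 15.4% (DESeq2) around 6.57% for fibroblasts against mural cells, and from 1.18% (without Acta2GFP) to 15.2% (DESeq2) around 7.26% for cluster 2 against clusters 1, 5 and 7. For neighbouring clusters the lowest shares came without Acta2GFP and the highest from DESeq2, except where named: 0 to 1.23% around 0.037% (5 and 7), 0.0299 to 2.84% around 0.412% (1 and 5, highest with plates in place of lines), 0.135 to 10.6% around 1.86% (6 and 1), 0.125 to 11.97% around 2.1% (2 and 6), 0.300 to 5.92% around 0.668% (4 and 3) and 0.784 to 5.87% around 1.04% (8 and 3, lowest with the block, and without Acta2GFP cluster 8 had no sum). With DESeq2, which changes scaling and model together, the median of all genes shifted by 0.11 between clusters 5 and 7, 0.16 between 6 and 1 and -0.16 between 2 and 6. Among the alternative levels, 38 moved by more than the SD between lines, and 46 of 80 shares left the interval of the thinned share when cells were used as deposited. Classes had 1 to 4 lines, and clusters 6 and 8 few cells, so a difference that was not called is not shown to be absent.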
